A study of Mus musculus with 5 samples.

Results

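The CC chemokine ligands are small secreted proteins whose name comes from a pair of adjacent cysteines. The 10 genes described here (Ccl2, Ccl3, Ccl4, Ccl5, Ccl6, Ccl7, Ccl8, Ccl9, Ccl12 and Ccl24) were taken by gene symbol from a table of 34970 genes, and all 10 were found. The table holds 5 mouse RNA sequencing libraries, 1 per group, all with the genotype given as wild type. PB is labelled as blood cells, which the design text gives as CD45-positive. BM is bone marrow, MCC the series' complex of myeloid-like cells, from a study of turning fibroblasts into macrophages, MEF embryonic fibroblasts and iPSC induced pluripotent stem cells. The sources used here do not give strain, age, number of animals or cultures, any agent used or the way MCC was made.

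CC ligands are released by stromal and immune cells, are held on matrix and cell surfaces, and steer leukocytes through G protein-coupled receptors. Ccl2, Ccl7 and Ccl12 draw monocytes through Ccr2, and mouse Ccl8 acts through Ccr8. Ccl3, Ccl4 and Ccl5 act on macrophages and lymphocytes, and Ccr1 is among the receptors of Ccl3 and Ccl5. Ccl6 and Ccl9 are rodent ligands of Ccr1, and Ccl24 is an eotaxin that draws eosinophils through Ccr3. Fibroblasts are a known source of Ccl2 and Ccl7, and macrophages can make many of the ligands.

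Total counts ranged from 30078366 in PB to 47557598 in MCC. Levels are given as CPM, which are counts divided by the library total after scaling with edgeR's TMM factors and set to a total of 1e+06. With 1 library per group there is no replicate check and no p-value, and values compare these libraries. Intervals are 95% and cover counting error only; for the 22 of 50 member levels at 5 CPM or more, neither bound lay over 10.7% of the level away. For ratios given as at least a value, a count of 0 was set to 3 reads. That is 0.0736 CPM in BM, 0.0694 in MEF and 0.0574 in iPSC. The 95% interval of 0 reads reached somewhat higher, to 0.0906, 0.0853 and 0.0706 CPM. Such ratios are thus approximate and are not 95% bounds. Labels were checked on marker genes. All 6 pluripotency markers reached 5 CPM in iPSC and none did elsewhere. The 8 fibroblast markers all reached it in MEF and in MCC, the 8 macrophage markers in BM and MCC, and the 6 leukocyte markers in PB, BM and MCC. MCC thus held fibroblast and macrophage transcripts together, and in bulk RNA fewer cells of a type and less RNA per cell cannot be told apart. Despite the CD45 gate named in the design text, 5 of 6 erythroid markers reached 5 CPM in PB. Library codes of BM, MCC, MEF and iPSC lie close together and that of PB far away, so PB values cannot be told apart from a difference in batch.

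Of the 10 genes, 9 lie on mm10 chromosome 11, in 2 groups separated by 1409 kb. The group around Ccl2 spans 81.2 kb, with Ccl2 (chr11:82035571-82037453), Ccl7 (chr11:82045712-82047525), Ccl12 (chr11:82101845-82103400) and Ccl8 (chr11:82115185-82116799), all on the plus strand. Ccl11, which is no member, lies among them. The group around Ccl5 spans 139 kb. It holds Ccl5 (chr11:83525778-83530518), Ccl9 (chr11:83572919-83578636), Ccl6 (chr11:83587882-83593087) and Ccl3 (chr11:83647844-83649355) on the minus strand and Ccl4 (chr11:83662584-83664683) on the plus strand. Ccl24 lies alone on chromosome 5 (chr5:135569937-135573049, minus strand). No exon of the 10 genes overlaps an exon of another annotated gene, and 9 of the 10 share no stretch of 50 bases with transcripts of another gene. In Ccl9, 1.97% of such stretches recur elsewhere, so its reads could be split or lost only over a small part of the gene.

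RefSeq windows on GRCm38.p6 were available for 5 members: Ccl12, Ccl8, Ccl9, Ccl6 and Ccl3. The 250 bases before the start are shown for the 3 of these whose level was highest in MCC, so that their start regions can be compared. Capitals mark matches to the searched letters: TATAAA on the gene's strand and, on both strands, GAGGAA (core of the PU.1 site), TGANTCA (AP-1), TTGCNNAA (C/EBP), TTCNNNGAA (STAT), the interferon response element and the NF-kB consensus.
Ccl12 (chr11:82101595-82101844, plus strand): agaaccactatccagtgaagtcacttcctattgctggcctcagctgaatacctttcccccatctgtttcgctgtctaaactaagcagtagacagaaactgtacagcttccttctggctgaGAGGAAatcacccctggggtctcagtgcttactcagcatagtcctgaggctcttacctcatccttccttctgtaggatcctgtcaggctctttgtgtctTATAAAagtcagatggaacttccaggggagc
Ccl8 (chr11:82114935-82115184, plus strand): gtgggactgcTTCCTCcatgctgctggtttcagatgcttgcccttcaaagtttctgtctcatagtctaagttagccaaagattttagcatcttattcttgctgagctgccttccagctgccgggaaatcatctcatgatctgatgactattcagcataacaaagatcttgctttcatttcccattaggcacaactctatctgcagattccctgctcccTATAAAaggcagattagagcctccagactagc
Ccl9 (chr11:83578637-83578886, minus strand): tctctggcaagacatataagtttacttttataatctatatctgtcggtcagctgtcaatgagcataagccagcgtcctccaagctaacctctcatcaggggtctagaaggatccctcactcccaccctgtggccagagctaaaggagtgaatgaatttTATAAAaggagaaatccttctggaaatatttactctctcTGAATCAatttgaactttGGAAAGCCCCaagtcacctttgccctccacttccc

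The neighbours Ccl12 and Ccl8 each held TATAAA, with its first base 31 and 32 bases before the start, and each held 1 match to GAGGAA or its complement, 130 and 240 bases before it. Ccl9 held TATAAA at 92 bases, an AP-1 match at 53 and an NF-kB match at 35 bases. Ccl3 held a GAGGAA match at 33 bases and Ccl6 none of the 7 motifs. Of 32851 windows of the same length, 7.59% held TATAAA, 23.3% GAGGAA, 6.75% the AP-1 letters and 7.25% the NF-kB consensus. The C/EBP, STAT and interferon response letters were in 9.56%, 7.02% and 2.98% of windows and in none of these 5. A match describes the letters and is no evidence of binding.

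The 4 ligands of the Ccl2 group were near 0 in both native blood libraries, apart from low levels of Ccl2, and high in MCC. Summed over the group, they stood at 698 CPM in MCC, 176 in MEF and 57.1 in iPSC, against 2.78 in PB and 2.75 in BM. Within the group the members differed in where else they were high: Ccl2 and Ccl7 were shared with fibroblasts and stem cells, while Ccl8 and Ccl12 stayed under 5 CPM in every library but MCC.

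**Figure D1:**
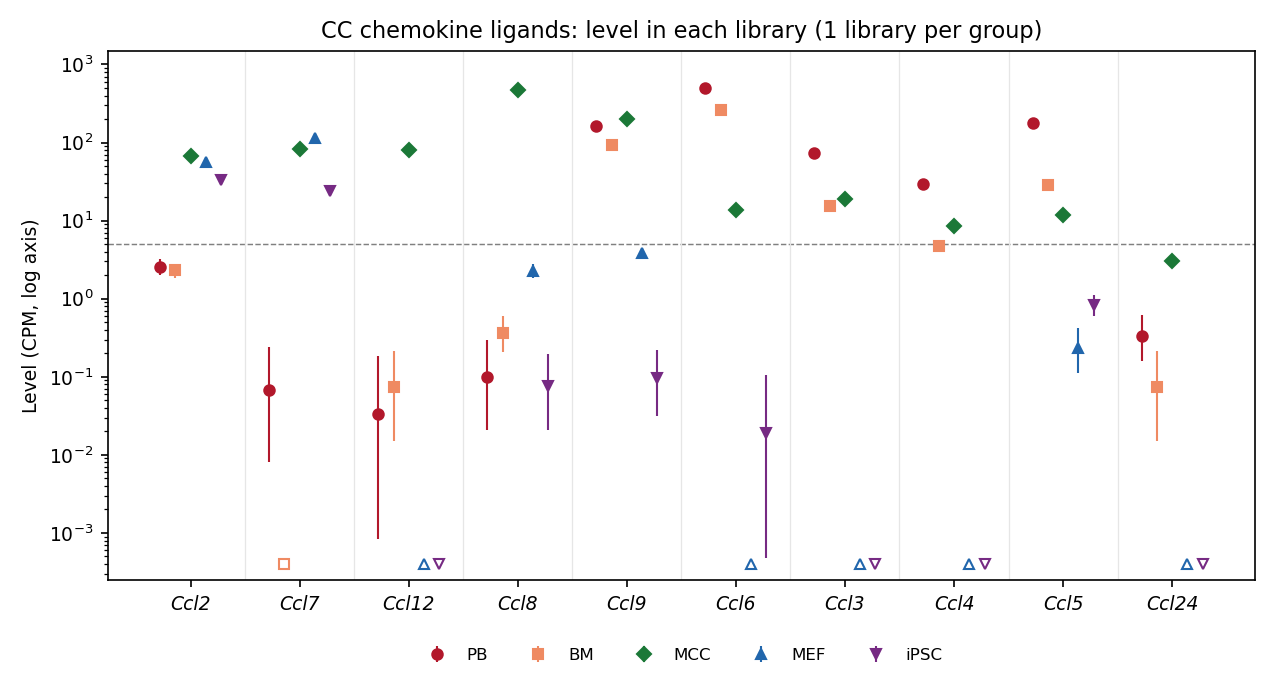
Level of each CC ligand (CPM, log axis) in the 5 libraries, with 95% counting intervals as bars; open symbols at the bottom mark 0 reads and the dashed line 5 CPM. Ccl8 and Ccl12 stood at 467 and 79.3 CPM in MCC with every other library under 5 CPM, whereas Ccl6, Ccl3, Ccl4 and Ccl5 were highest in PB.

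Ccl8 was the most prominent ligand of MCC. It stood at 467 CPM (460.2 to 473) in MCC, 2.29 in MEF, 0.368 in BM, 0.100 in PB and 0.0765 in iPSC. All 4 other libraries thus lay far below MCC, and PB and iPSC, with 3 and 4 reads, did not differ beyond counting error. The MCC level was 204-fold (167 to 251) that of MEF, 1267-fold (768 to 2265) that of BM, 4646-fold (1590 to 22533) that of PB and 6098-fold (2381 to 22383) that of iPSC. Per kb of merged exon, the scale used here to compare genes, Ccl8 reached 913 CPM per kb in MCC. That placed it at rank 77 of the 24134 genes with a read there and an annotated length. Merged exons pool all annotated transcripts of a gene, 511 bases for Ccl8 and 3045 for Ccl9. They can be longer than the transcript expressed, so levels, shares and ranks per kb are approximate. Macrophage markers summed to 7447 CPM in MCC and 5.46 in MEF, and fibroblast markers to 27970 and 18853 CPM. Of the 8 fibroblast markers 4 passed as higher in MCC than in MEF (Col3a1, Pdgfra, Dcn and Lum), where 8.05% of all genes did. As lower passed 1 (Pdgfrb, 4.80-fold), where 2.71% of all genes did. Col1a1, Col1a2 and Thy1 were lower by 1.55-fold or less. The part of either cell type in the ligand levels was not tested.

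Ccl12, the adjacent gene and a Ccr2 ligand of the mouse, was at 79.3 CPM in MCC, 0.0736 in BM and 0.0335 in PB, with 0 reads in MEF and iPSC. The levels outside MCC came from at most 3 reads and cannot be ordered. MCC was at least 1143-fold higher than MEF and at least 1382-fold higher than iPSC. Against BM and PB the ratios were 1077-fold (368 to 5223) and 2368-fold (425 to 93576), on 3 reads and 1 read.

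Ccl2, the main monocyte attractant, stood at 67.9 CPM in MCC, 57.0 in MEF and 32.8 in iPSC, against 2.58 in PB and 2.31 in BM. The cultured cells and MCC were high and the native blood libraries low, and PB and BM did not differ beyond counting error (1.12-fold, 0.816 to 1.53). MCC exceeded MEF by only 1.19-fold (1.13 to 1.26) and iPSC by 2.07-fold (1.95 to 2.20), but PB by 26.3-fold (21 to 33.5) and BM by 29.4-fold (24.0 to 36.5).

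Ccl7, another monocyte attractant, was the one member highest in MEF, at 116 CPM against 83.6 in MCC, 24.1 in iPSC, 0.0670 in PB and 0 reads in BM. MEF exceeded MCC by 1.39-fold (1.33 to 1.45) and MCC exceeded iPSC by 3.47-fold (3.25 to 3.70). MCC was 1249-fold (346 to 10319) above PB, which had 2 reads, and at least 1136-fold above BM.

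Ccl2 and Ccl7 were also present in the iPSC library, where the fibroblast markers summed to 379 CPM against 18853 in MEF. The Ccl2 group summed to 0.325 times its MEF level in iPSC, and the fibroblast markers to 0.0201 times theirs. Col1a1, the main fibroblast collagen gene, was 52.5-fold (51.4 to 53.7) lower in iPSC than in MEF, while Ccl2 was 1.73-fold (1.63 to 1.85) and Ccl7 4.82-fold (4.53 to 5.13) lower. The part of any fibroblast RNA in the iPSC levels was not tested.

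The Ccl5 group had another distribution: its 5 ligands summed to 949.7 CPM in PB, 404 in BM and 254 in MCC, against 4.12 in MEF and 0.937 in iPSC. Of the 5, 4 were highest in PB and Ccl9 was highest in MCC. All 5 were at 5 CPM or more in MCC and none was in MEF or iPSC.

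Ccl6, a ligand of the Ccr1 receptor found in rodents, was at 505 CPM in PB, 263 in BM and 13.8 in MCC, with 0 reads in MEF and 1 in iPSC. The native libraries were far above MCC, by 36.7-fold (33.8 to 39.9) in PB and 19.1-fold (17.6 to 20.8) in BM. MCC in turn was at least 199-fold above MEF. Neutrophil markers, which summed to 5280 CPM in PB and 61230 in BM, summed to 4.77 CPM in MCC, where Ly6g was at 0. All 8 neutrophil markers passed as lower in MCC than in BM, where 13.5% of all genes did. Against PB 6 of 8 passed as lower, where 15.4% of all genes did. The part of neutrophils in the Ccl6 levels was not tested.

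Ccl9, the other rodent ligand of Ccr1, was at 200.3 CPM in MCC, at 163 CPM in PB, 92.7 in BM, 3.88 in MEF and 0.0957 in iPSC. MCC and the native libraries were close, at 1.23-fold (1.19 to 1.27) over PB and 2.16-fold (2.08 to 2.25) over BM, and MEF and iPSC were low. With DESeq2 size factors MCC and PB were nearly level for Ccl9, at a log2 ratio of 0.014. Against MEF the MCC level was 51.6-fold (44.3 to 60.4) higher. Ccl6 and Ccl9, although neighbours in the genome, thus stood in opposite order in MCC and BM. Against PB the small Ccl9 difference depended on the scaling, so no opposite order is claimed there.

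Ccl3 and Ccl4, the macrophage inflammatory ligands, had the same order of libraries. Ccl3 was at 74.1 CPM in PB, 19.0 in MCC and 15.3 in BM, and Ccl4 at 29.1, 8.63 and 4.74 CPM. Both had 0 reads in MEF and iPSC. PB exceeded MCC by 3.90-fold (3.60 to 4.23) for Ccl3 and 3.37-fold (2.99 to 3.82) for Ccl4. MCC exceeded BM by 1.24-fold (1.12 to 1.38) and 1.82-fold (1.53 to 2.18), and MEF by at least 274-fold and at least 124-fold.

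Ccl5, made by T cells, natural killer cells and activated macrophages, was at 178 CPM in PB, 28.4 in BM and 11.9 in MCC, with 0.823 in iPSC and 0.231 in MEF. PB was 6.28-fold (5.89 to 6.70) above BM and 15-fold (13.7 to 16.4) above MCC. T and NK cell markers summed to 735 CPM in PB, 139.7 in BM and 0.0926 in MCC. In MCC none of these 8 markers reached 5 CPM and 4 (Cd3e, Cd3g, Cd8a and Gzma) were at 0. The cells that held the Ccl5 reads of MCC were not tested.

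Ccl24, the eotaxin, was low throughout: 3.01 CPM (2.51 to 3.57) in MCC, 0.335 in PB, 0.0736 in BM and 0 reads in MEF and iPSC. It was highest in MCC, 8.99-fold (4.73 to 19.2) above PB, but was the only member to reach 5 CPM in no library. The other 9 members reached it in at least 1 library. Over all 10 genes, 5 were highest in MCC, 4 in PB and 1 in MEF. Of the 40 pairs of libraries next to each other in a gene's order of levels, 29 differed beyond counting error, 2 did not, and 9 had at most 3 reads on both sides.

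The native libraries and MCC differed in which ligand led, although the summed CPM of the 10 genes was nearly the same in PB and MCC. Per kb of merged exon the sums were not alike, at 664 CPM per kb in PB and 1351 in MCC. The summed CPM was 953 in PB and 954 in MCC, against 407 in BM, 179.7 in MEF and 58.0 in iPSC. Ccl8 took 48.9% (48.4 to 49.4) of these reads in MCC, and 67.6% per kb. Ccl6 led in PB with 53.0% (52.4 to 53.6) and in BM with 64.6% (63.9 to 65.4), or 42.3% and 61.9% per kb. Ccl7 led in MEF with 64.7% (63.7 to 65.8), and 72.1% per kb. In iPSC Ccl2 had 56.6% (54.9 to 58.4) of the reads and Ccl7 41.6%, but per kb Ccl7 was ahead with 50.2% against 48.1%.

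**Figure D2:**
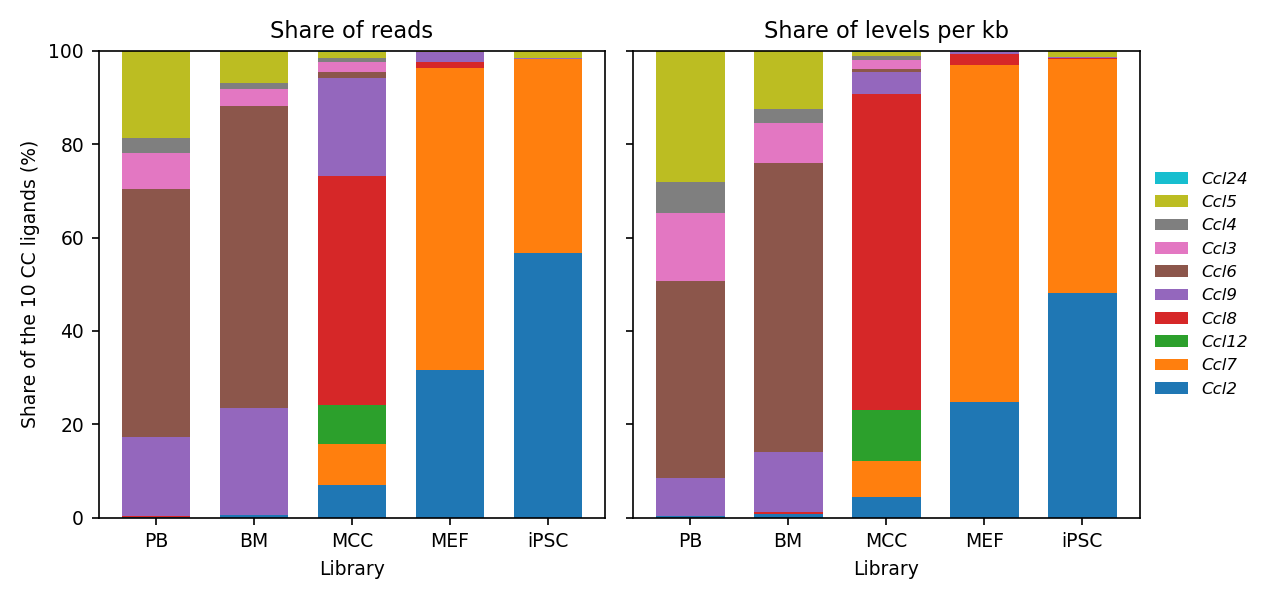
Share of each CC ligand in the summed reads of the 10 genes (left) and in their summed levels per kb of merged exon (right), in percent, for each library. Ccl8 is the largest part of MCC (48.9% of reads), Ccl6 of PB and BM (53.0% and 64.6%), and Ccl2 and Ccl7 make up nearly all of MEF and iPSC.

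By position, the genes of the Ccl2 group held 73.1% (72.7 to 73.5) of the member reads in MCC, 97.7% in MEF and 98.4% in iPSC, but 0.292% in PB and 0.676% in BM. The Ccl5 group held 99.7% and 99.3% in PB and BM, 26.6% in MCC, and 2.29% and 1.62% in MEF and iPSC. MCC was the one library in which each group held over 5% of the reads. This grouping by position was made after the values were known and is a description.

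**Figure D3:**
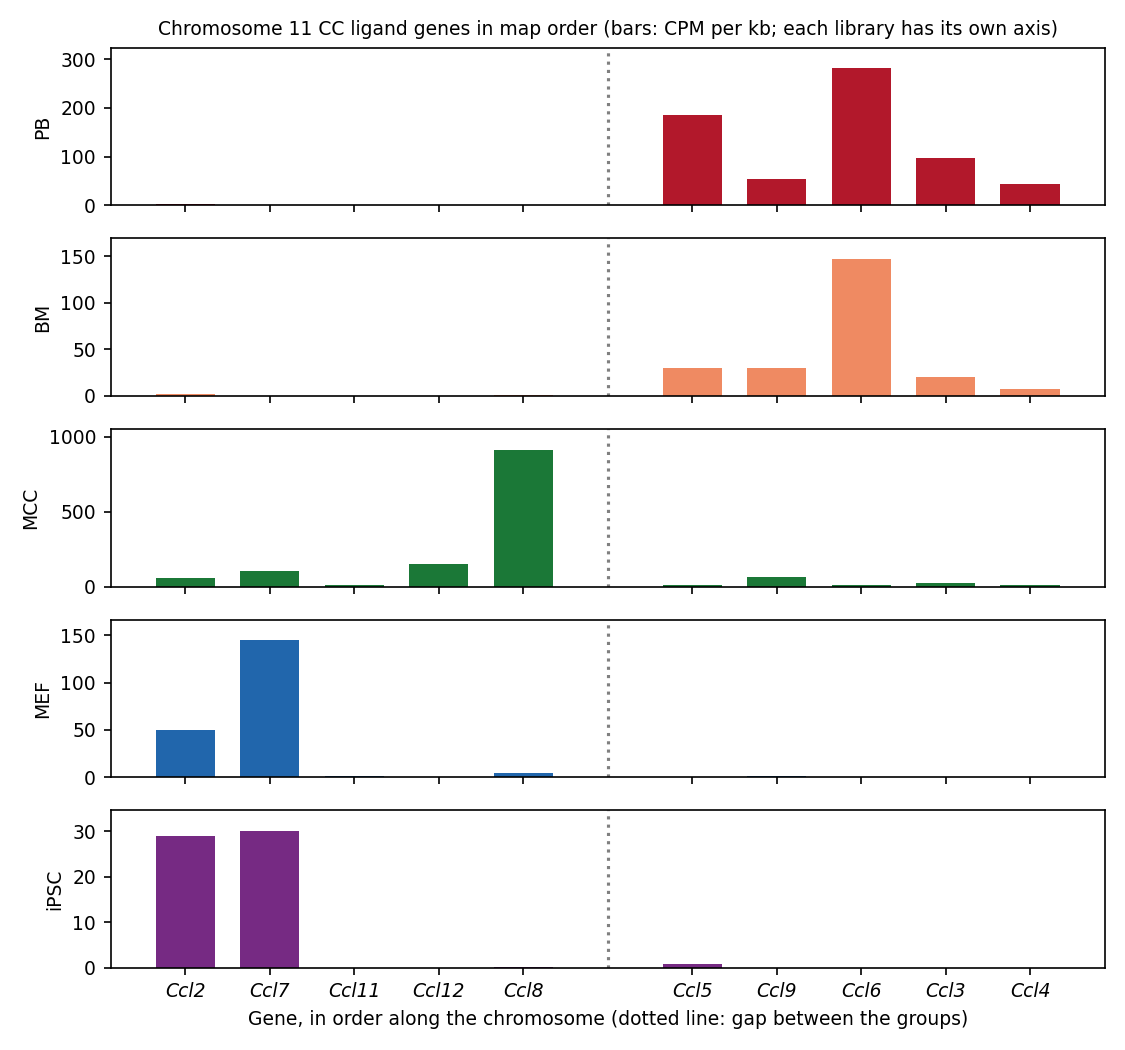
Levels per kb of merged exon (CPM per kb) of the CC ligand genes in their order along chromosome 11, one row per library with its own axis; the dotted line is the gap between the groups, and distances are not to scale. PB and BM have their bars to the right of the gap, MEF and iPSC to the left at Ccl2 and Ccl7, and MCC is highest at Ccl8 (913 CPM per kb).

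Genes were counted as different between libraries where the CPM ratio, taken with every count below 3 raised to 3, reached 4-fold and the higher library reached 5 CPM. The members were chosen with earlier results of these data known, so their counts describe them and test nothing. Of the 10 genes, 7 were higher in MCC than in MEF (Ccl3, Ccl4, Ccl5, Ccl6, Ccl8, Ccl9 and Ccl12), where 8.05% of all genes at 5 CPM were, and 0 were lower, where 2.71% were. The median log2 ratio of the 10 was 6.32, and 6.96 for the 9 at 5 CPM, against -0.01 over all genes at 5 CPM. The same 7 were higher in MCC than in iPSC, against 11.3% of genes, and 0 lower, against 9.77%. Medians were 7.57 for the 10 and 7.91 for the 9 at 5 CPM, against 0.14 over all genes at 5 CPM. Ccl2 and Ccl7 passed in neither comparison.

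Against the native libraries the genes of the Ccl2 group were those that passed as higher. Ccl2, Ccl7, Ccl8 and Ccl12, 4 of 10, were higher in MCC than in BM, against 15.6% of genes, and 1, Ccl6, was lower, against 13.5%. The same 4 were higher in MCC than in PB, against 21.5% of genes, and 2, Ccl5 and Ccl6, were lower, against 15.4%. Medians of the 10 were 3.0 against BM and 1.73 against PB, beside 0.11 and 0.38 over all genes at 5 CPM. For the 9 members at 5 CPM the medians were 1.11 and 0.30. Against PB the median of these 9 was thus not above that of all genes at 5 CPM. With DESeq2 size factors 4 were lower in MCC than in PB. Ccl3 (3.90-fold as reported) and Ccl4 (3.37-fold) then passed, as these factors moved the median log2 ratio of all genes by -0.28.

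Between the native libraries only 5 members reached 5 CPM in either, so the others could not pass. Of these 5, 0 were higher in BM than in PB, against 9.68% of genes at 5 CPM. The 3 lower in BM were Ccl3, Ccl4 and Ccl5, against 6.32%. Between MEF and iPSC only 2 members, Ccl2 and Ccl7, reached 5 CPM. Of these 1, Ccl7, was higher in MEF, against 6.37% of genes at 5 CPM, and 0 were lower, against 8.83%. Ccl8 and Ccl9 were 29.9-fold (11.3 to 112) and 40.6-fold (17.1 to 127) higher in MEF than in iPSC but stayed under 5 CPM in both, so neither could pass. With total counts as the scaling Ccl7 fell short of 4-fold between MEF and iPSC. These comparisons share libraries, so their counts are not independent of each other.

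**Figure D4:**
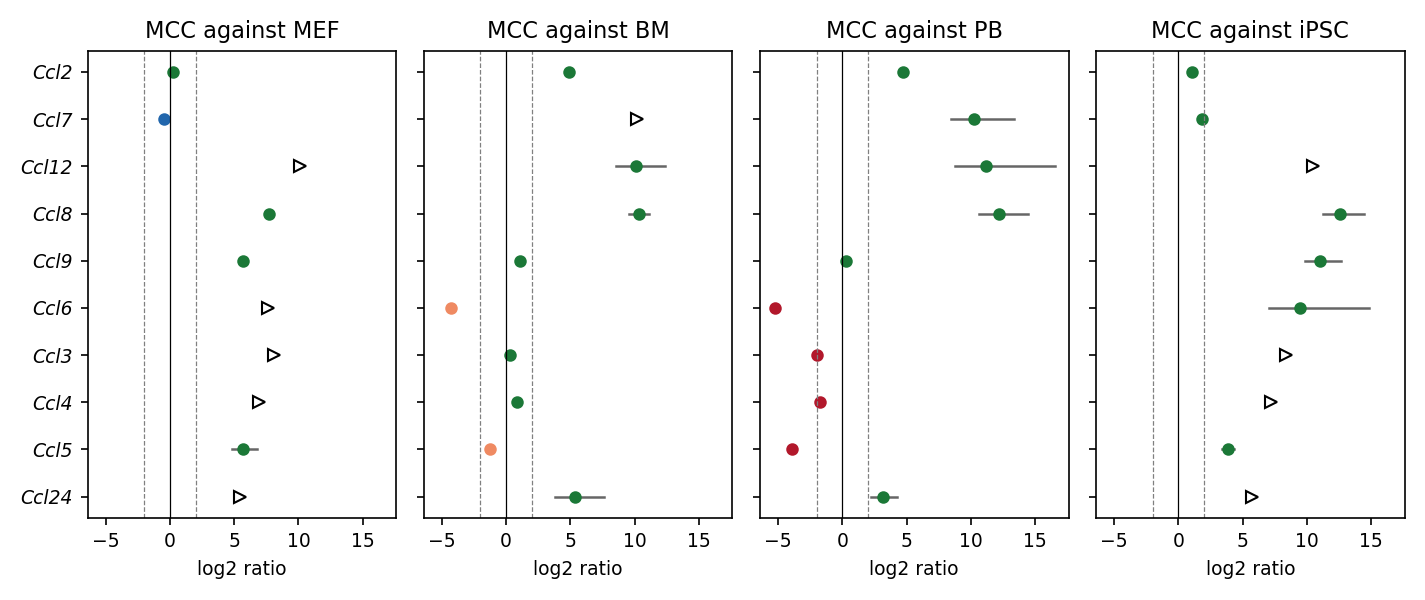
Log2 ratio of each CC ligand in MCC to MEF, BM, PB and iPSC; dots are ratios with 95% counting intervals, green where MCC is higher, open triangles are lower bounds against 0 reads and dashed lines mark 4-fold. The genes to the right of the upper dashed line are Ccl12, Ccl8, Ccl9, Ccl6, Ccl3, Ccl4, Ccl5 and Ccl24 against MEF and iPSC, and Ccl2, Ccl7, Ccl12, Ccl8 and Ccl24 against BM and PB; Ccl24 stayed under 5 CPM.

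The receptors of these ligands were read in the same libraries. Of the 10 CC receptor genes reported here, 6 reached 5 CPM in PB and 5 in BM, but 1 in MCC and 0 in MEF and iPSC. The 1 in MCC was Ccr1, a receptor of Ccl3, Ccl5, Ccl6 and Ccl9. Ccr1 was at 148 CPM in PB, 156 in BM and 19.9 in MCC, and MCC was 7.85-fold (7.31 to 8.44) below BM and 172-fold (73.3 to 530.3) above MEF.

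Ccr2, the receptor of Ccl2, Ccl7 and Ccl12, was at 187 CPM in BM, 159 in PB, 0.717 in MCC and 1 read each in MEF and iPSC. It was 261-fold (183 to 384) lower in MCC than in BM. The Ccr2 ligands and the receptor thus stood in opposite order in MCC and the native libraries. Ccr8, the receptor of mouse Ccl8, had 0 reads in MCC and MEF and was at 1.34 CPM in PB. Ccr3, the eotaxin receptor, was at 13.4 CPM in PB, 10.8 in BM and 1.41 in MCC. Ccr7, the receptor that guides cells to lymph nodes, was at 369 CPM in PB and 0.162 in MCC.

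**Figure D5:**
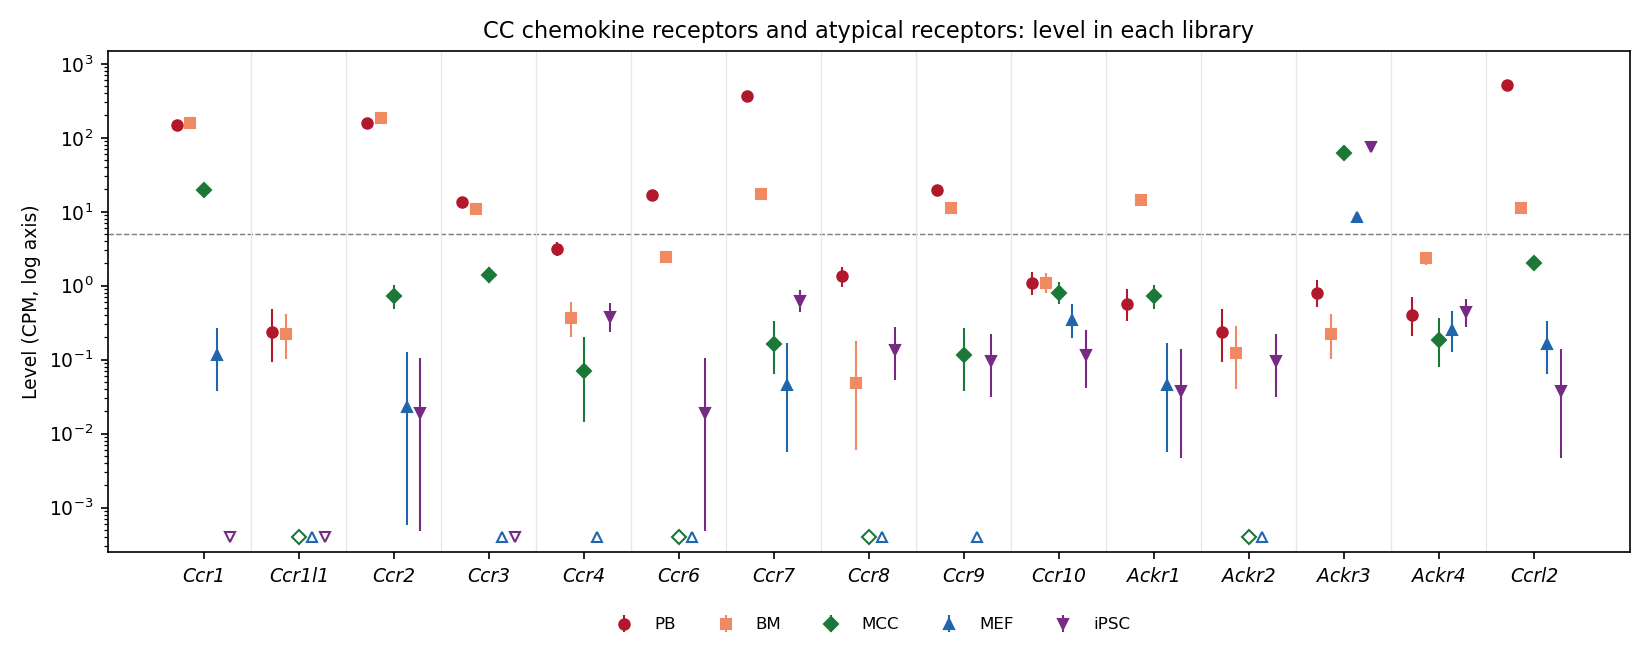
Level (CPM, log axis) of 10 CC chemokine receptor genes and 5 atypical or receptor-like genes in the 5 libraries, with 95% counting intervals; open symbols at the bottom mark 0 reads and the dashed line 5 CPM. In MCC, Ccr1 and Ackr3 are above 5 CPM and Ccr2 is at 0.717 CPM.

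Of the 5 atypical or receptor-like genes, Ackr3, which takes up chemokines without signalling through G proteins, stood highest in iPSC (74.5 CPM), then in MCC (63.2 CPM) and MEF (8.58 CPM). It was under 1 CPM in PB and BM. Ccrl2, a receptor-like gene induced in activated leukocytes, was at 519 CPM in PB, 11.3 in BM and 2.06 in MCC. Against MEF, 1 of the 5 genes passed as higher in MCC, Ackr3, at 7.37-fold (6.61 to 8.23), and 0 as lower, against 8.05% and 2.71% of all genes.

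Among 13 other CC ligands listed, 9 were in the table, and Ccl11 was the one that passed in MCC. Ccl11, an eotaxin that lies within the Ccl2 group, was at 8.36 CPM in MCC, 1.87 in MEF and 0 reads in PB, BM and iPSC, 4.46-fold (3.50 to 5.75) above MEF, a comparison in which 8.05% of all genes passed as higher. Ccl25, a ligand of gut-homing lymphocytes, lay between 3.89 and 4.86 CPM in all 5 libraries. Of its exon bases, 2.74% overlap Elavl1 on the opposite strand, and Elavl1 stood at 62.7 CPM in PB and 122 in MEF. The strand setting is not given, so Elavl1 reads counted for Ccl25 cannot be told apart. Ccl27a was at 5.09 CPM in MCC, 4.14 in MEF and 5.03 in iPSC. Its transcripts share 45.0% of their 50-base stretches with other genes, so its counts are uncertain. The remaining 6 (Ccl1, Ccl17, Ccl19, Ccl20, Ccl22 and Ccl28) were under 1 CPM in every library.

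Factors and cytokines that regulate CC ligands were divided between libraries. Of 12 NF-kB pathway genes 1 was higher in MCC than in MEF (Nfkbie, 19.9 against 3.88 CPM) and 0 lower, where 8.05% and 2.71% of all genes were. Against PB 5 of the 12 were lower in MCC and 0 higher, where 15.4% and 21.5% of all genes were. Those lower than in PB included the feedback inhibitors Tnfaip3, at 2035 CPM in PB, 32.2 in BM and 5.81 in MCC, and Nfkbia, at 1648, 187 and 40.1 CPM. The members highest in MCC, Nfkb2 and Rela, were at 125 and 98.2 CPM there and 67.0 and 102 CPM in MEF. In PB Tnfaip3, Nfkbia, Il1b (2573 CPM) and Tnf (213 CPM) were high together with Ccl3, Ccl4 and Ccl5. Il1b was 19.9-fold (19.3 to 20.4) and Tnf 10.2-fold (9.48 to 11) above BM. The part of cell activation or handling in the PB levels was not tested.

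Of the 8 STAT and interferon regulatory factor genes reported here, 4 (Stat2, Irf5, Irf7 and Irf8) were higher in MCC than in MEF, where 8.05% of all genes were, and 0 were lower, where 2.71% were. Against BM 0 passed in either direction, where 15.6% of all genes were higher and 13.5% lower. Irf7, a factor of the interferon response, was at 114 CPM in MCC, 108 in BM and 3.42 in MEF. The most abundant of the 8, Stat3 and Stat6, stood at 276 and 143 CPM in MCC, against 229 and 124 in MEF. Of 11 listed cytokine genes only 1, Csf1, reached 5 CPM in MCC or MEF, so the others could not pass. Csf1 did not pass, where 8.05% of all genes were higher and 2.71% lower. Csf1, the macrophage growth factor, was at 174 CPM in MCC and 301 in MEF. Il10 had 216 reads in MCC, just under the 5 CPM minimum, and 0 in MEF. Of 10 genes for receptors of inducing signals, 2 were higher in MCC than in MEF, Tlr2 (64.8 against 4.86 CPM) and Il4ra (805 against 117 CPM), and 0 lower, against 8.05% and 2.71% of all genes. Tnfrsf1a, a receptor of Tnf, was at 337 CPM in MCC and 157 in MEF, and Ifngr1, of the interferon gamma receptor, was highest in PB at 459 CPM.

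Of 5 genes that control decay of chemokine mRNA, 1 was higher in MCC than in MEF, Zfp36, at 208 against 28.9 CPM, and 0 lower, against 8.05% and 2.71% of all genes. Zfp36 was at 1837 and Zfp36l2 at 1492 CPM in PB, and Zfp36l1 at 202 CPM in MCC and 63.8 in MEF. Of 6 protease genes whose products trim CC ligands, 3 reached 5 CPM in MCC or MEF. Of these 0 passed between the 2 libraries, where 8.05% of all genes were higher in MCC and 2.71% lower. Mmp2 was at 442 CPM in MCC and 262 in MEF, and Mmp14 at 261 and 559 CPM. Against BM, 2 were higher in MCC (Mmp2 and Mmp14) and 3 lower (Dpp4, Mmp9 and Ctsg), where 15.6% and 13.5% of all genes were, with Mmp9 at 2069 CPM in BM and 14.7 in MCC.

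The genes whose levels over the 5 libraries were most like those of each ligand were found by the root mean square difference of log2(CPM + 1), among 12610 other genes that reached 5 CPM in any library. Nearest to Ccl8 was Agtr2, an angiotensin receptor gene, at 413 CPM in MCC, 2.43 in MEF, 0.0736 in BM and 0 in PB and iPSC, with a difference of 0.19. Its next gene, Clec3b, was at 0.81. Nearest to Ccl12 were Folr2, a folate receptor gene of macrophages (0.53), and Rarres2, which encodes chemerin (0.66). Nearest to Ccl7 was the imprinted gene Ndn (0.14), then Pdzrn3 (0.26), and to Ccl2 Cttnbp2nl (0.25) and Ier5l (0.26).

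The genes nearest to the members of the Ccl5 group were Pou2f2 (0.15) and Kbtbd11 (0.38) for Ccl5, Tlr1 (0.25) and Il21r (0.27) for Ccl3, Phf11b (0.35) and Pkib (0.47) for Ccl4, and Lilrb4a (0.39) and Sla (0.57) for Ccl6. For Ccl9 the nearest was Irf7 (0.64). Ccl24, under 5 CPM throughout, was not compared. Likeness over 5 libraries is a description and says nothing of shared control.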

How the data were processed

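RNA from 1 library per group (PB, BM, MCC, MEF and iPSC) was measured by sequencing of polyA RNA after Trizol extraction, per the labels' protocols. The authors deposited whole-number read counts per gene symbol, with no normalization. STAR, featureCounts and the mm10 build are named in the submitters' processing notes. The sources used here do not give versions, annotation, strand setting or filters. Each column was matched to its library by the library code, and 0 columns were left unused.

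From the deposited counts, CPM was computed on TMM-scaled library sizes (edgeR 4.0.16, R 4.3.3), with exact Poisson intervals for levels, exact binomial (Clopper-Pearson) intervals for shares, and conditional binomial intervals for ratios (scipy 1.17.1). Reads carry no stated molecular identifiers, so intervals cover counting error only. No ratio is given where both libraries had 3 reads or fewer. Gene positions and merged exon lengths came from GENCODE M21 (mm10), and start windows from RefSeq on GRCm38.p6. The calculation was tested on simulated data.

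The members and gene lists were chosen with earlier results of these data known. All members are named; from each pathway list the rule names the 2 genes highest in MCC, the 2 highest elsewhere and, where 5 or fewer, those that differ between MCC and MEF, and for likeness the 2 nearest genes. Further genes were named after their values were seen: Ccr8, Tnf, Dpp4, Ctsg, Elavl1, the low CC ligands and the markers. Listed ligands absent from the table were not analysed here, and some other genes of the lists and of the likeness ranking are not reported here. Alternatives were DESeq2 1.42.0 size factors, total counts, no minimum CPM or 20 CPM, the counting bound, 2-fold, 8-fold, removal of abundant genes and, added after seeing the data, TMM of each pair alone.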

Additional observations from a re-analysis of the deposited data

How the results depend on the processing

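The 12 counts of CC ligands higher or lower in a comparison were recomputed under 9 settings, 108 values in all, and 99 stayed within 1.5 times the reported count. A minimum of 20 CPM lowered the count higher in MCC than in MEF from 7 to 3 and that against iPSC from 7 to 3. DESeq2 size factors raised the count lower in MCC than in PB from 2 to 4, and 2-fold raised it to 4 and the count lower than in BM from 1 to 2. An 8-fold threshold lowered the count lower in BM than in PB from 3 to 0 and the count higher in MEF than in iPSC from 1 to 0. That last count became 0 with total counts and 3 with no minimum CPM.

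Of 120 recomputed ratios of MCC to another library, 13 lay outside the counting interval of the reported ratio. The largest move was 0.39 on the log2 scale. Among ratios past the 4-fold threshold 0 changed direction, which moves of this size could not have brought about. Total counts moved the median log2 ratio of all genes by -0.39 for MCC against iPSC and -0.36 for MEF against iPSC, and DESeq2 size factors by -0.28 for MCC against PB. Shares per kb lay outside the interval of the read share in 30 of 50 cases, and the leading gene was the same in 4 of 5 libraries. No paired analysis was possible because each group has 1 library and no test was made. Leaving out a replicate was likewise not possible.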
